A study of Rattus norvegicus with 6 samples.

Results

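Cell cycle and proliferation genes were examined in aneurysmal abdominal aortas of Sprague-Dawley rats. The genes were given by name, from the replicative helicase to the proteins of cell division, and 33 of the 35 listed symbols had a row among the 24988 genes of the table. No row carried the names Ccnb2 and E2f1, so these genes are not analysed here. Total RNA was sequenced in 6 libraries, 3 of aneurysms left untreated and 3 of aneurysms given NP, a targeted nanotherapy by the series title. The labels do not state how the aneurysm was induced, what NP holds or how old the rats were, and no aorta without aneurysm is among the samples. Nothing in the labels ties each library to a rat of its own, so every p-value reflects only the scatter of these libraries, which may be technical.

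Proliferating cells switch on genes in waves. At the entry to S phase the E2F transcription factors drive the genes of DNA replication, such as the MCM helicase, PCNA and the enzymes that make nucleotides. Later the B-MYB and FOXM1 factors, with NF-Y, drive the genes of mitosis, while in resting cells the DREAM complex holds both waves down through E2F sites and through cell cycle homology region (CHR) elements. In a healthy aorta most smooth muscle cells rest, and in an injured or inflamed wall smooth muscle cells, fibroblasts, endothelial cells and leukocytes can all divide. In whole tissue, fewer dividing cells and less RNA per dividing cell cannot be told apart.

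The promoters of 26 of the 33 genes were found in the RefSeq promoter table (GRCr8), which spans 250 bases before and 50 after each start. The other 7 were Mcm4, Rrm2, Ccna2, Aurkb, Foxm1, Ube2c and Tpx2. Promoters of 3 replication genes and 3 mitotic genes are shown from position -150 to 30. Capitals mark the E2F motif (TTTCCCGC, TTTGGCGC, TTTCGCGC or TTTGCCGC), the CHR motif (TTTGAA) and the NF-Y motif (CCAAT), each searched on both strands. In Mcm7 an E2F match and a CCAAT match overlap by 1 base, as do a CHR and a CCAAT match in Mki67. Pcna has no match in the printed stretch, and its only match, a CCAAT from position -168 to -164, lies outside it. The printed promoters are examples and do not stand for all 26. Each of the 3 mitotic ones holds a CHR match, against 12 of the 19 mitotic promoters, and those of Kif11, Kif20a and Cenpe hold none.
Mcm7: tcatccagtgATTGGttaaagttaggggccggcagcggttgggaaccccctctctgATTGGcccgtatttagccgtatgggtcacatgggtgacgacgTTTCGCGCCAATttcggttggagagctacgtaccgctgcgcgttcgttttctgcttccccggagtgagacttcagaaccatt
Tyms: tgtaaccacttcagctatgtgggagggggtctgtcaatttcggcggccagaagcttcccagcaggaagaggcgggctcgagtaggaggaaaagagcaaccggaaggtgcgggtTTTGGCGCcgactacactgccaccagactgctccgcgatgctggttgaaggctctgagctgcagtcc
Pcna: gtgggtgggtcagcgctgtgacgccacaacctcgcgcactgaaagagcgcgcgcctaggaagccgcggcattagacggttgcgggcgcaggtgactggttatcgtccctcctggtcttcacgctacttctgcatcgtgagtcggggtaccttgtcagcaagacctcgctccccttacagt
Cdk1: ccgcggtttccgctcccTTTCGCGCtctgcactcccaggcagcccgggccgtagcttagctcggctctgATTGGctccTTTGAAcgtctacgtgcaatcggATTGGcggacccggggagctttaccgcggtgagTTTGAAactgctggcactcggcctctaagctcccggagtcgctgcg
Cdc20: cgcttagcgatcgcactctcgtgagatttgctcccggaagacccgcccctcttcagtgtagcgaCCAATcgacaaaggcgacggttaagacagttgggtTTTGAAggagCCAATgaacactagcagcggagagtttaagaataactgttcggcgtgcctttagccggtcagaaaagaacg
Prc1: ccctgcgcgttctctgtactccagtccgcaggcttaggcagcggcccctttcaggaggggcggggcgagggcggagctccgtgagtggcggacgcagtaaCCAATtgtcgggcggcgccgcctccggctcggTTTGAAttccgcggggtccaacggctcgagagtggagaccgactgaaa
The windows lie at chr12:22163149-22163328 (minus strand) for Mcm7, chr9:120776054-120776233 (minus strand) for Tyms and chr3:139955791-139955970 (minus strand) for Pcna. Those of the mitotic genes lie at chr20:19265143-19265322 (plus strand) for Cdk1, chr5:137255770-137255949 (minus strand) for Cdc20 and chr1:143659331-143659510 (plus strand) for Prc1.

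Over the whole 300 bases, an E2F match was found in 6 of the 7 promoters of replication genes, all but that of Pcna. Among the 19 promoters of mitotic genes, 1 held an E2F match, that of Cdk1. The share among all 33469 promoters of the table was 2.14%, and it was 3.78% among the 10874 promoters of genes tested here. A CHR match stood in 12 of the 19 mitotic promoters and in 1 of the 7 replication promoters, that of Mcm2, against 18.3% of all promoters and 11.8% of those of tested genes. CCAAT was found in 20 of the 26 promoters and in 37.5% of all promoters. No match was found in Aurka, Melk and Bub1. A match is a description of letters and does not show that a factor binds.

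**Figure D1:**
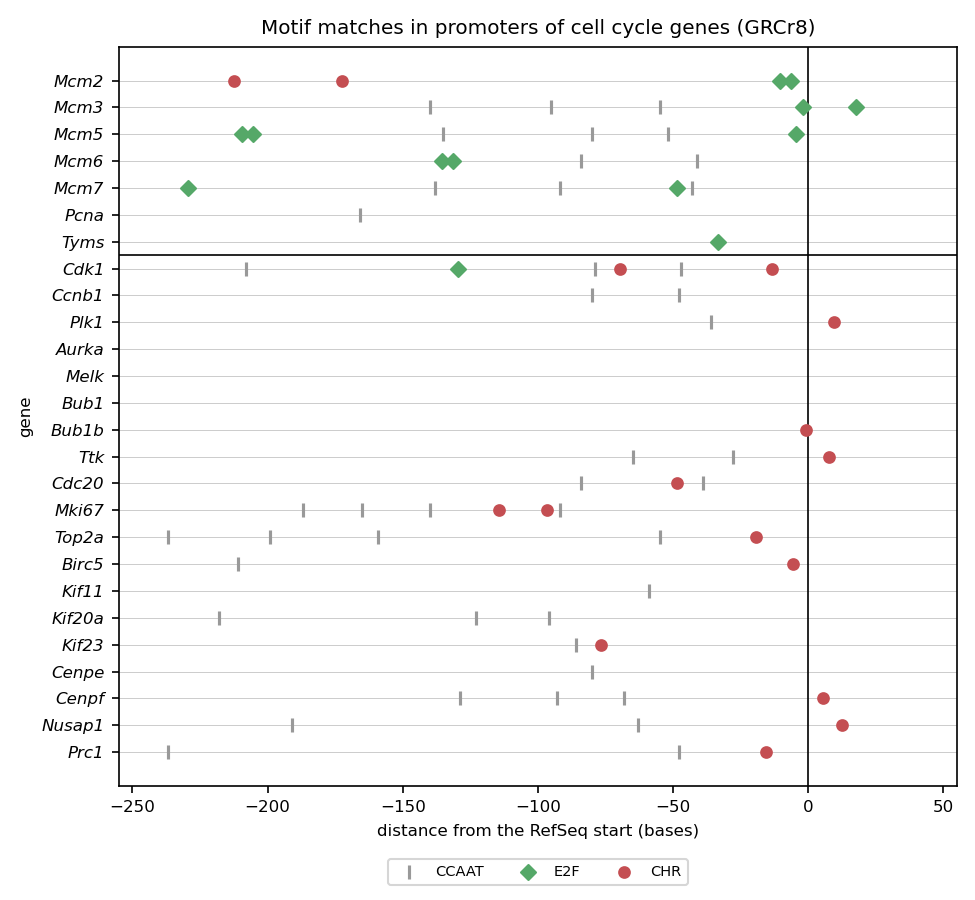
Motif matches in the 26 promoters, by distance in bases from the RefSeq start (0, vertical line). Each row is a gene, the horizontal line separates 7 replication genes from 19 mitotic genes, diamonds are E2F matches, circles CHR matches and grey ticks CCAAT matches. Diamonds stand in 6 of the 7 upper rows and circles in 12 of the 19 lower rows.

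All 33 genes were detected in every library, with between 43 and 2063 counts per gene and library, and all passed the filter on low counts. The libraries held 26100468 to 30939002 counts, and the levels of the 33 genes summed to between 262 and 714 CPM (counts scaled to the TMM-corrected library size). The smooth muscle markers Acta2 and Myh11 lay between 555 and 1909 CPM and between 485 and 1702 CPM, so the labelled tissue carried its defining markers. On the scale that corrects for gene length as well as depth (FPKM), Pcna had the highest level, with a mean of 30.9 over the 6 libraries. Ube2c, the E2 enzyme of the anaphase-promoting complex, followed at 15.4 FPKM, then Cdk1 at 9.58 and Mcm7 at 8.86 FPKM. Their ranges ran from 22.5 to 45.5 FPKM for Pcna, 3.43 to 24.9 for Ube2c, 4.23 to 16.6 for Cdk1 and 6.71 to 12.2 for Mcm7. Those of the last 3 overlapped, and that of Ube2c also reached into that of Pcna, since in treated replicate 3 Ube2c was above Pcna. Mki67, the gene of the Ki-67 antigen, averaged 3.69 FPKM, and the kinetochore genes Cenpe and Cenpf stood at the low end, each at 0.80 FPKM.

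Values spread widely between the libraries of each group. Untreated replicate 3 and treated replicate 2 were the 2 lowest libraries in 29 of the 33 genes, a pattern named after the values were seen, whereas 5.94% of the 16522 tested genes had that pair lowest. This held for all 24 mitotic genes and for 5 of the 9 replication genes. The highest library was treated replicate 3 in 18 genes and untreated replicate 2 in 12, against 22% and 16.7% of all tested genes. The gap between the highest and the lowest library, on the log2 CPM scale (prior count 2), exceeded 2 in 19 of the 33 genes, against 20.1% of tested genes. Its median was 2.04 over the 33 genes and 1.04 over all tested genes. Each group thus held libraries with high and with low values, and the groups overlapped in all 33 genes. Groups that did not overlap were found in 0 of the 33, against 5.67% of all tested genes.

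**Figure D2:**
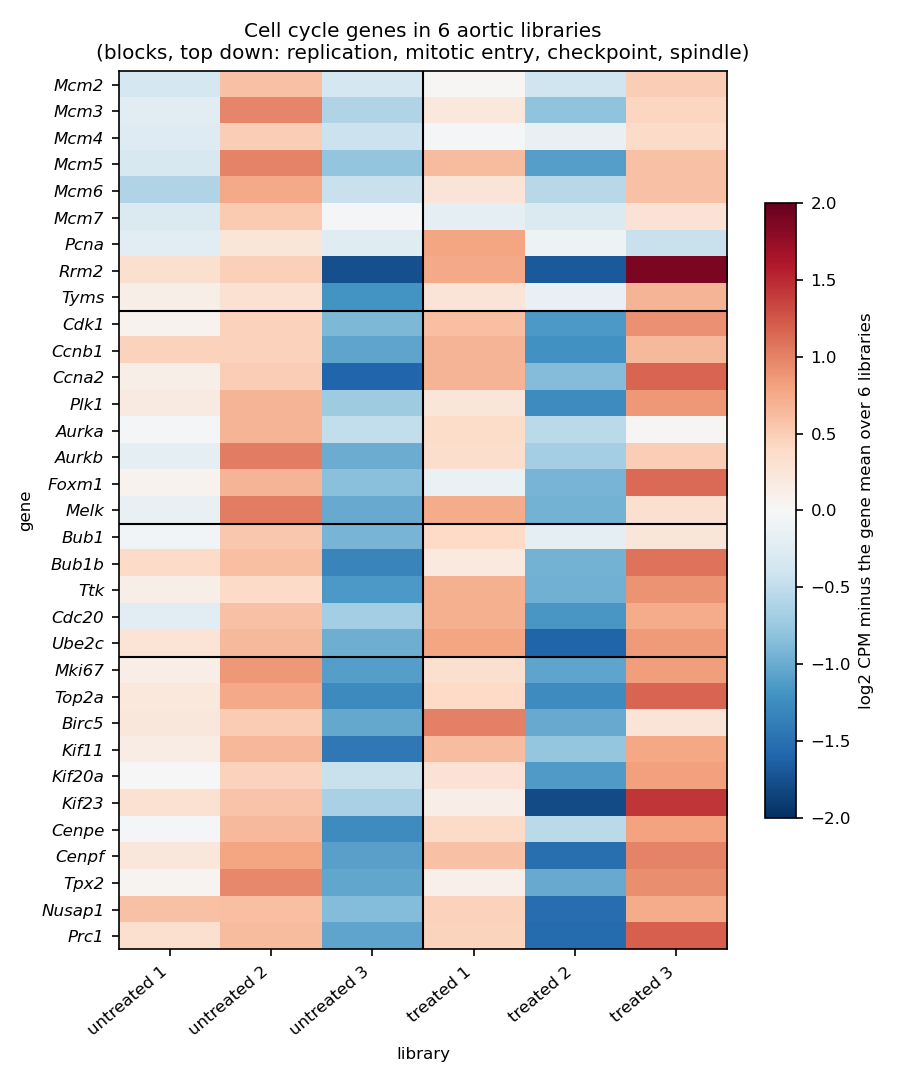
Log2 CPM of the 33 genes (rows, in blocks by role) in the 6 libraries (columns), with every gene centred on its mean of all 6; red is above and blue below that mean, and the vertical line separates untreated from treated. Untreated 3 and treated 2 are the 2 lowest in 29 of the 33 rows, and treated 3 is the highest in 18 and untreated 2 in 12.

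Among the replication genes, Rrm2, the inducible subunit of ribonucleotide reductase, varied most, by 13.01-fold between its highest and lowest library. In the order of replicates 1, 2 and 3, it was at 6.27, 6.93 and 1.42 CPM untreated and at 8.49, 1.51 and 18.5 CPM treated, and the same order is used for each gene. Treated replicate 3 was the highest and the 2 low values fell in different groups, so the groups overlapped. The means were 4.87 ± 3.01 CPM untreated and at 9.49 ± 8.53 CPM treated (SD, n = 3 each), with a log2 fold change of 0.96 (SE 0.89), which was 0.04 without treated replicate 3. Tyms, thymidylate synthase, was at 5.42, 6.17 and 2.15 CPM untreated and at 5.99, 4.49 and 8.06 CPM treated. Untreated replicate 3 was the lowest for Tyms and treated replicate 3 the highest, and its log2 fold change was 0.43 (SE 0.46).

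Mcm7, a subunit of the MCM helicase, had the smallest relative spread of the 33 genes, with a fold of 1.76 between the highest and the lowest library. It was at 21.8, 38.3 and 25.8 CPM untreated and at 23.7, 21.7 and 32.6 CPM treated (log2 fold change -0.14, SE 0.27). Untreated replicate 2 was the highest library for Mcm7, as it was for 6 of the 9 replication genes. Over Mcm2 to Mcm6 the log2 fold changes ran from -0.17 in Mcm3 to 0.13 in Mcm6. Mcm5 had the widest relative range of the helicase genes, a fold of 4.30 from 6.39 CPM in treated replicate 2 to 27.5 CPM in untreated replicate 2.

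Pcna, the sliding clamp of the replication fork, which also serves DNA repair, did not follow the order of the others. It was at 37.0, 51.2 and 36.4 CPM untreated and at 74.8, 40.1 and 31.7 CPM treated. Treated replicate 1 was the highest, and treated replicate 3, highest in most other genes, was the lowest. Its means were 41.5 ± 8.36 and 48.9 ± 22.9 CPM, and its log2 fold change was 0.24 (SE 0.34). It was -0.22 without treated replicate 1, so that library set its direction. Relative to the mean profile of the 33 genes, Pcna in treated replicate 3 lay 1.18 below on the log2 scale, the largest departure of any gene and library.

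Of the kinases and cyclins of mitotic entry, Ccna2, cyclin A2, was at 11.7, 15.1 and 3.50 CPM untreated and at 17.1, 5.86 and 24.1 CPM treated. Untreated replicate 3 was the lowest and treated replicate 3 the highest, and the fold between them was 6.88. The means were 10.1 ± 5.95 and 15.7 ± 9.20 CPM, a log2 fold change of 0.64 (SE 0.64). Cdk1, the kinase that starts mitosis, was at 13.3, 17.6 and 6.78 CPM untreated and at 19.3, 5.72 and 23.9 CPM treated (log2 fold change 0.38, SE 0.55). Cdk1 kept close to the mean profile of all 33 genes, as did Mki67. The other members of this block were Ccnb1 (cyclin B1), the mitotic kinases Plk1, Aurka and Aurkb, the transcription factor Foxm1 and the kinase Melk. Their log2 fold changes ran from -0.14 in Aurka to 0.18 in Foxm1. Foxm1 was at 4.60 CPM in treated replicate 2 and 19.4 CPM in treated replicate 3, so 1 group held both extremes.

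The spindle checkpoint holds anaphase until every chromosome is attached. The block of the checkpoint and the anaphase-promoting complex had the same 2 lowest libraries in all 5 of its genes. Ttk, the checkpoint kinase MPS1, was at 4.68, 5.66 and 1.92 CPM untreated and at 7.11, 2.18 and 8.10 CPM treated (log2 fold change 0.50, SE 0.59). Cdc20, the activator of the anaphase-promoting complex, was at 8.22, 14.4 and 5.88 CPM untreated and at 15.6, 4.21 and 16.02 CPM treated (log2 fold change 0.33, SE 0.55). In both, 2 of 3 treated libraries lay above every untreated one while treated replicate 2 was near or below the lowest. Ube2c was at 15.7, 20.3 and 6.54 CPM untreated and at 22.5, 4.21 and 23.3 CPM treated (log2 fold change 0.23, SE 0.66). The checkpoint kinases Bub1 and Bub1b had 0.20 (SE 0.39) and 0.24 (SE 0.66).

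Among the genes of the spindle, chromosomes and midzone, Prc1, which bundles the microtubules of the midzone, was at 22.6, 28.2 and 8.69 CPM untreated and at 24.7, 6.21 and 41.9 CPM treated. Its log2 fold change was 0.29 (SE 0.68). Kif20a, a kinesin of cytokinesis, was at 18.6, 25.3 and 13.5 CPM untreated and at 22.6, 8.39 and 32.5 CPM treated. Kif11, the motor that separates the spindle poles, was at 8.39, 12.1 and 2.78 CPM untreated and at 11.6, 4.42 and 12.99 CPM treated. Cenpe, a kinetochore motor, was at 6.67, 10.8 and 2.84 CPM untreated and at 8.93, 4.70 and 12.0 CPM treated. In all 4, the treated group held a higher top value than the untreated group, and the lowest libraries were untreated replicate 3 and treated replicate 2.

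Mki67 was at 43.5, 72.4 and 18.4 CPM untreated and at 49.8, 19.1 and 70.7 CPM treated. The 2 groups held nearly matching high, middle and low values, with means of 44.8 ± 27.0 and 46.5 ± 25.96 CPM and a log2 fold change of 0.06 (SE 0.59). Top2a, the topoisomerase that untangles chromosomes, ran from 7.63 to 41.4 CPM. Kif23, a kinesin of the midzone, had the widest relative range among mitotic genes, from 2.11 CPM in treated replicate 2 to 20.2 CPM in treated replicate 3. Birc5 (survivin), Cenpf, Tpx2, which nucleates spindle microtubules, and Nusap1, a spindle-associated protein, had log2 fold changes from -0.06 in Nusap1 to 0.27 in Birc5.

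**Figure D3:**
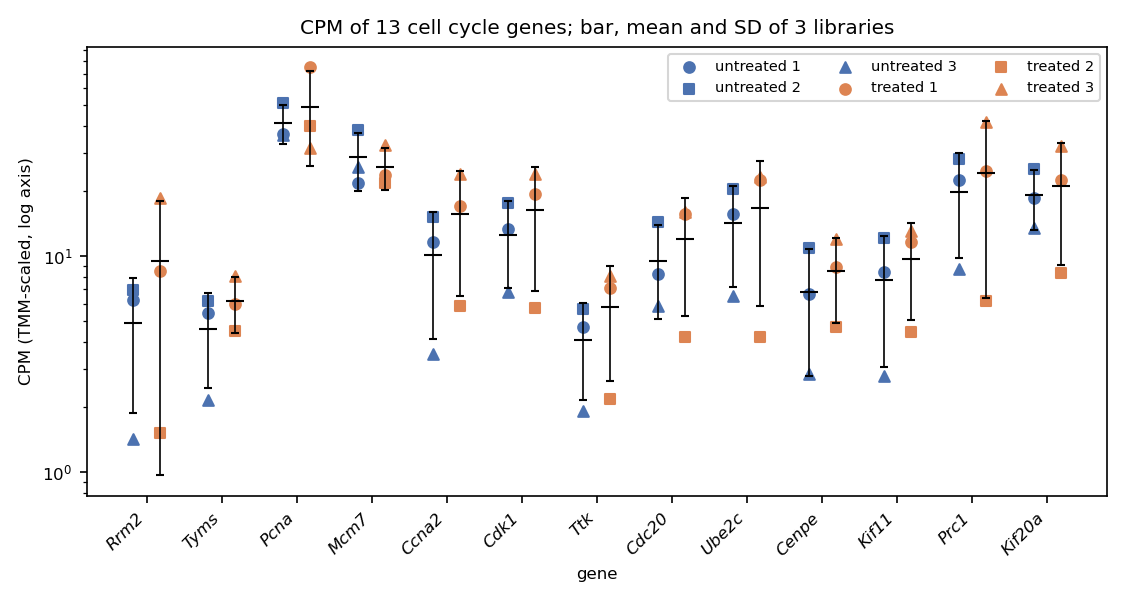
TMM-scaled CPM (log axis) of 13 cell cycle genes, blue for untreated and orange for treated libraries, with marker shapes for the replicate number; the black bar is the mean and the whisker the SD of 3 libraries. Both groups overlap in every gene, and Pcna is the gene in which treated 1 is highest and treated 3 lowest.

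With edgeR's quasi-likelihood test and Benjamini-Hochberg adjustment, 0 of the 33 genes passed an adjusted p of 0.05, higher or lower, and 0% of all 16522 genes did. The smallest unadjusted p among the 33 was 0.313, for Rrm2, so 0 of them lay under 0.05, against 1.93% of tested genes. DESeq2 and limma-voom also called 0 of the 33, with 0 at an unadjusted p under 0.05 in each, while DESeq2 called 0.162% of its 17922 genes.

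The log2 fold change was above 0 in 27 of the 33 genes, against 55.6% of tested genes, and its median was 0.19, against 0.04 over all tested genes. That direction rested on single libraries. Without untreated replicate 3, 7 of 33 were above 0 and the median was -0.10, and without treated replicate 3, 10 were above 0 and the median was -0.15. Without untreated replicate 2 all 33 were above 0, with a median of 0.60, and without treated replicate 2, 32 were, with a median of 0.54. The median was 0.07 without treated replicate 1 and 0.20 without untreated replicate 1.

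The intervals were wide. The 95% interval of the log2 fold change reached 1 or more in 28 of the 33 genes, -1 or less in 20, and both in 18. For Mki67 it ran from -1.32 to 1.43. It was narrowest for Mcm7, from -0.78 to 0.50. The data therefore leave room for a doubling in 28 of the genes and do not show that NP left them alone.

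**Figure D4:**
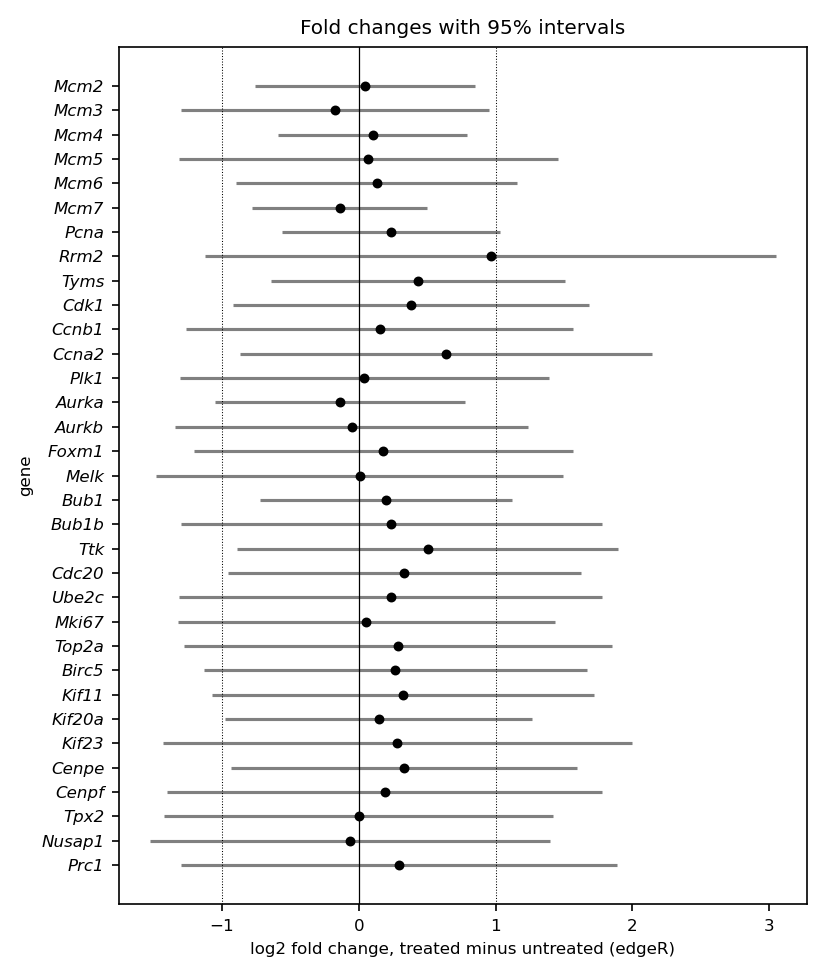
Log2 fold change, treated minus untreated, of each of the 33 genes (point) with its 95% interval (line) from edgeR's quasi-likelihood fit; dotted lines stand at -1 and 1. Every interval crosses 0, and 18 of them reach both dotted lines.

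Averaged over genes after centring, the 33 genes stood at 0.04, 0.64 and -0.90 on the log2 scale in the untreated libraries, in replicate order, and at 0.42, -0.93 and 0.73 in the treated ones. The mitotic genes moved over a wider span than the replication genes. The mitotic mean minus the replication mean was 0.34, 0.07 and -0.34 in the untreated libraries and 0.16, -0.48 and 0.26 in the treated ones. It was lowest in the 2 libraries that were low overall.

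The share of counts taken by the 13 mitochondrially encoded genes followed a like order. It was 12.3%, 12.8% and 9.17% of counts in the untreated libraries and 10.7%, 8.54% and 13.9% in the treated ones, so the 2 libraries low in cell cycle genes also had the lowest shares. The part of this share in the result was not tested. Total counts did not follow that order: treated replicate 2 had the fewest, and untreated replicate 3 had more than 4 of the other libraries.

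**Figure D5:**
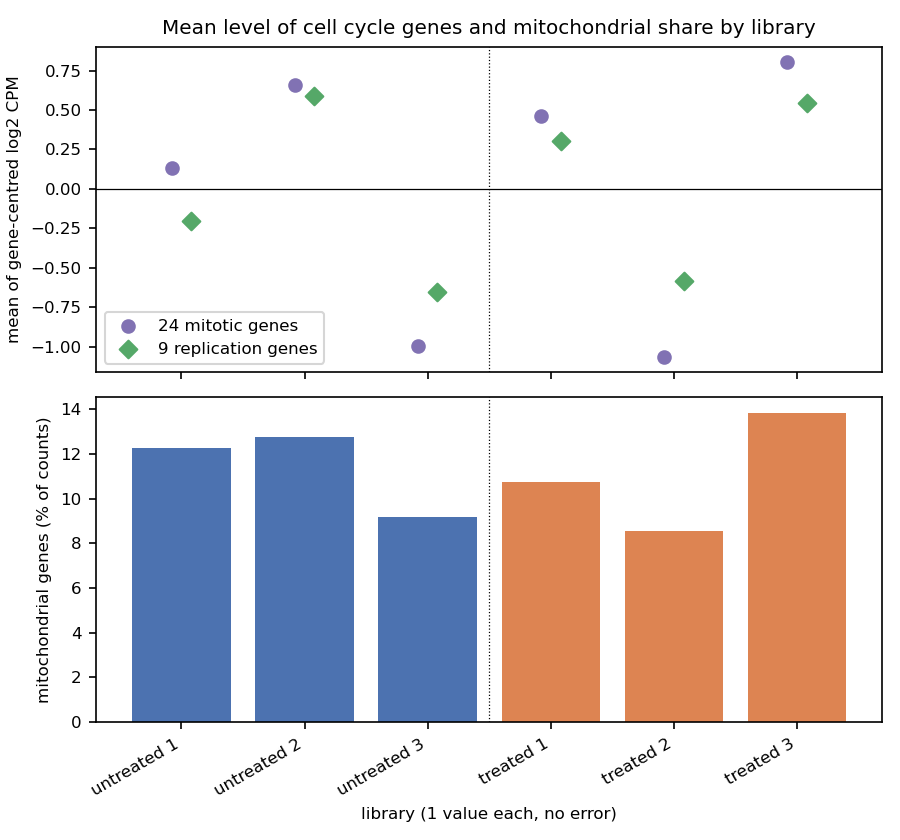
Upper panel, mean of gene-centred log2 CPM over 24 mitotic genes (circles) and 9 replication genes (diamonds) in each library; lower panel, percent of counts in 13 mitochondrial genes, with bars from 0. Each library gives 1 value without error; untreated 3 and treated 2 are lowest in both panels.

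Markers of cell types in the wall showed another order. Of 82 tested markers in 11 lists, 2 had untreated replicate 3 and treated replicate 2 as the lowest pair, the T cell gene Cd8a and Mybl1, a transcription factor listed for germinal centres. Lymphocyte markers stood out in untreated replicate 2, where 9 of 10 T and NK cell markers and 7 of 8 B and plasma cell markers were highest. That library was highest in 16.7% of all tested genes. Cd3e, of the T cell receptor complex, was at 6.06, 37.5 and 8.30 CPM untreated and at 2.68, 5.33 and 10.4 CPM treated. Summed over the list, T and NK cell markers ranged from 333 to 587 CPM untreated and from 230 to 352 CPM treated. Cd4, a gene that rat macrophages also express, made up most of that sum in each library. It was at 278, 371 and 303 CPM untreated and at 177, 307 and 169 CPM treated. B and plasma cell markers summed to 66.2 to 248 CPM untreated and to 20.0 to 125 CPM treated. Jchain, of the antibody joining chain, made up much of the latter sum, at 14.7 to 125 CPM, and the other 7 genes summed to 12.7 to 134 CPM untreated and 5.26 to 22.7 CPM treated. Pax5, which defines B cells, was at 0 in untreated replicate 1 and treated replicate 1. The part of lymphocytes in the high replication genes of untreated replicate 2 was not tested.

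In treated replicate 3, the library highest in most mitotic genes, 5 of 9 smooth muscle markers and 5 of 7 endothelial markers were also highest. That library was highest in 22% of all tested genes. The smooth muscle markers Myh11, Tagln and Lmod1 were highest in treated replicate 2, which was low in the cell cycle genes. Smooth muscle markers summed to 2744 to 3116 CPM untreated and 2446 to 5054 CPM treated, and endothelial markers to 700 to 921 and 399 to 1417 CPM. None of these markers was at 0 in any library. Their part in the result was not tested. Macrophage and monocyte markers were highest in untreated replicate 2 in 7 of 10 cases, against 16.7% of all tested genes, and in treated replicate 1 in the other 3.

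Of the 11 lists, which were chosen with earlier results of these data known, that of adipocyte markers held the most genes whose groups did not overlap. All 8 had a log2 fold change below 0, with a median of -1.93, and the groups did not overlap in 7 of them, against 5.67% of all tested genes. By edgeR 6 of the 8 had an unadjusted p under 0.05, against 1.93% of tested genes, and 0 passed the adjusted p of 0.05. DESeq2 called 3 of the 8, against 0.162% of its 17922 genes. With limma-voom, 0 of the 8 and 0 of its 16522 genes were called. Summed, in replicate order, they stood at 766, 774 and 687 CPM untreated and at 53.3, 252 and 266 CPM treated. Every treated library was below every untreated one, and treated replicate 1, not treated replicate 2, was the lowest. Neutrophil markers were below 0 in 6 of 6, with a median of -1.16 and sums of 40.7 to 75.1 CPM untreated and 9.40 to 33.7 CPM treated. Mast cell markers were below 0 in 6 of 7, with a median of -1.84, while Kit, also a receptor of other cells, had one above 0. The sums of the mast cell list overlapped, at 47.0 to 70.3 CPM untreated and 24.2 to 70.6 CPM treated. Groups did not overlap in 2 of these 7 genes, and 1 of the 7 had an unadjusted p under 0.05 by edgeR. Other lists also lay on 1 side, while 55.6% of all tested genes had a log2 fold change above 0. B and plasma cell markers were below 0 in 8 of 8 (median -2.19), T and NK cell markers in 10 of 10 (-0.82) and erythroid markers in 7 of 7 (-0.33). Smooth muscle markers were above 0 in 9 of 9 (0.46), and the remaining lists were mixed. In each of these 4 lists the groups overlapped in every gene. The part of these cell types in the levels of the cell cycle genes was not tested.

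Other genes of the cycle were read in 5 lists. Of 102 genes tested in them, 0 passed edgeR's adjusted p of 0.05 in either direction, against 0% of all 16522 tested genes. By edgeR 0 of the 102 had an unadjusted p under 0.05, against 1.93% of tested genes, so these counts do not set the lists apart. DESeq2 and limma-voom gave 0 of the 102 on both counts. Over all genes, DESeq2 called 29 of 17922, with 576 at an unadjusted p under 0.05. For limma-voom these were 0 and 333 of 16522. The list of other mitotic genes followed the libraries as the members did, with the pair of untreated replicate 3 and treated replicate 2 lowest in 31 of 38 genes. Its median log2 fold change was 0.20, with 33 genes above 0 and 5 below. By smallest p these were led by Ncapg, a condensin subunit, at 1.21, 1.85 and 0.40 CPM untreated and at 3.37, 0.91 and 4.01 CPM treated. Cdc25b, a phosphatase that activates cyclin-dependent kinases, was at 46.9, 31.0 and 55.9 CPM untreated and at 14.005, 21.1 and 50.001 CPM treated. The kinesin gene Kif14 was at 0.91, 0.69 and 0.13 CPM untreated and at 0.83, 0.67 and 1.97 CPM treated. Treated replicate 3 was the highest library for Ncapg and Kif14 and untreated replicate 3 for Cdc25b, and the groups overlapped in all 3.

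Origin licensing and fork genes had that pair lowest in 13 of 28, with a median log2 fold change of 0.03. In that list Pola1, of the priming polymerase, was at 7.95, 7.98 and 7.205 CPM untreated and at 8.63, 8.84 and 10.8 CPM treated. It was the 1 gene of the 102 in these lists whose groups did not overlap, against 5.67% of all tested genes. Prim1, the primase, was at 14.3, 20.4 and 15.1 CPM untreated and at 21.2, 17.3 and 25.2 CPM treated (log2 fold change 0.35, SE 0.24). Gmnn, geminin, which blocks relicensing, was at 4.72, 4.50 and 2.54 CPM untreated and at 10.4, 2.91 and 4.75 CPM treated (log2 fold change 0.62, SE 0.52).

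The genes that act before S phase and those that restrain the cycle were read in the same way. G1 cyclins, kinases and pocket proteins had the low pair in 5 of 19 genes and a median log2 fold change of -0.03. Ccnd1, cyclin D1, was at 89.6, 73.9 and 70.9 CPM untreated and at 97.2, 77.0 and 136 CPM treated. Myc, a transcription factor of growth, was at 30.3, 35.6 and 31.8 CPM untreated and at 69.2, 38.2 and 29.6 CPM treated. The pocket protein gene Rbl2 was at 56.7, 71.0 and 59.7 CPM untreated and at 39.8, 63.8 and 53.7 CPM treated. The groups overlapped in all 3, and the highest library was a different one for each.

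The inhibitors of the cyclin-dependent kinases had the low pair in 1 of 7, and that gene was Cdkn3, a phosphatase of mitotic cells. Cdkn1a, the p21 inhibitor, was at 140, 199 and 208 CPM untreated and at 147, 143 and 97.7 CPM treated, with its highest value in untreated replicate 3 and its lowest in treated replicate 3. Its log2 fold change was -0.50 (SE 0.25), with an unadjusted p of 0.0833 and an adjusted p above 0.05 by edgeR.

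Cdkn2a, the p16 and p19 locus, was low, at 0.98, 0.80 and 1.12 CPM untreated and at 3.41, 0.98 and 2.11 CPM treated (log2 fold change 1.16, SE 0.55). Cdkn1c, the p57 inhibitor, was at 39.2, 15.6 and 40.9 CPM untreated and at 48.5, 49.97 and 33.6 CPM treated (log2 fold change 0.46, SE 0.37). The groups overlapped in both genes.

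Of 10 measured p53 target and stress arrest genes, 0 had the low pair, and the median log2 fold change was -0.07. Sesn2, a stress-induced sestrin, was at 35.2, 58.2 and 47.5 CPM untreated and at 27.1, 33.2 and 39.9 CPM treated (log2 fold change -0.49, SE 0.24). Ccng1, cyclin G1, was at 149, 129 and 148 CPM untreated and at 222, 174 and 127 CPM treated (log2 fold change 0.30, SE 0.24). Gadd45a, a growth arrest gene, was at 28.6, 12.6 and 31.4 CPM untreated and at 20.9, 16.4 and 23.2 CPM treated (log2 fold change -0.26, SE 0.35). The groups overlapped in each of these genes. Cdkn2d, Bbc3 and Trp53inp1 had no row under these names.

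In the RefSeq table, 13 of the 33 genes have pseudogenes or like-named copies, among them Ube2c with 5 and Pcna and Aurka with 3 each. Reads of such genes may be split or shared in counting, so their values are uncertain.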

How the data were processed

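Per the labels, total RNA was sequenced in 6 libraries of rat abdominal aorta, 3 untreated and 3 treated with NP. The authors deposited 1 table of raw counts and of FPKM, which the authors scaled by gene length and depth. HISAT2 2.0.4 is listed in the submitters' processing notes and SOAPnuke in the design text. No source used here names the counter, build, annotation or strand setting. Every library held more genes at 2 counts than at 1, which leaves the meaning of a single count unsettled. The 33 genes and the gene lists were chosen with earlier results of these data known.

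Counts were filtered with filterByExpr (minimum count 10), which kept 16522 genes, scaled by TMM and fitted by edgeR 4.0.16 (R 4.3.3) with group as the only term. The quasi-likelihood test was adjusted by Benjamini-Hochberg across the 16522 genes, at a threshold of 0.05. Standard errors are the fold change over the root of F. The test was also run on counts simulated from the mean levels and 1 common dispersion of these data, and no result here rests on that run. DESeq2 1.42.0 and limma 3.58.1 (voom, and log2 of FPKM plus 1 or 0.1 for genes with a mean of at least 0.1 FPKM) were alternatives, as were DESeq2 size factors, no filter, the replicate block and leaving out each library. All 33 genes are named. Values in every library are given for the 2 smallest p-values and the 2 highest mean FPKM of each of 4 role groups, and for the 3 genes of smallest p of each list of other cycle genes; other genes with values were chosen after these were seen. Promoter sequences are RefSeq's (GRCr8).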

Additional observations from a re-analysis of the deposited data

How the results depend on the processing

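The count of 0 among the 33 genes was the same under every alternative run. Over all genes the main test called 0 (319 at an unadjusted p under 0.05). DESeq2 called 29, and limma called 1 on log2(FPKM + 1) and 3 on log2(FPKM + 0.1), none of them among the 33. The cause was not tested. The median log2 fold change of the 33 genes was 0.10 by limma-voom, 0.05 on log2(FPKM + 1) and 0.06 on log2(FPKM + 0.1), against 0.19 in the main fit. Leaving out 1 library each moved it from -0.15 to 0.60. Of the 13 genes chosen by the rule of smallest p and highest FPKM, 8 changed sign in at least 1 alternative, and the adjusted p was above 0.05 in each. Leaving out 1 library each moved the log2 fold change of Pcna from -0.22 to 0.47, of Mcm7 from -0.34 to 0.12, of Cdk1 from -0.00088 to 0.79, of Ube2c from -0.11 to 0.69, of Cenpe from -0.037 to 0.84, of Kif11 from -0.078 to 0.79, of Prc1 from -0.36 to 0.75 and of Kif20a from -0.30 to 0.52. Kif20a was at -0.0098 by limma-voom, -0.0069 on log2(FPKM + 1) and -0.031 on log2(FPKM + 0.1), and Ube2c at -0.073 and -0.11 on the same 2 FPKM scales. The cause was not tested. With the replicate number as a block the median log2 fold change of the 33 genes was 0.14, with 0 of the 33 genes and 0 of all genes called. The correlations of same-numbered deviations from the group means were -0.17, 0.07 and -0.27 over all tested genes. Over the 33 genes they were 0.26, -0.15 and -0.55. Deviations from a mean of 3 libraries depend on each other, so these values cannot settle whether the numbers pair the libraries. On log2(FPKM + 0.1) the mitotic minus replication difference ranged from -0.46 to 0.33 over the 6 libraries, with the same sign as on log2 CPM in each. Each of the 33 genes had 43 or more counts in every library, and how much of each interval is counting error was not tested.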

Other observations

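Cdc45, a fork helicase factor in the licensing list, did not follow the low pair of libraries. In replicate order it was at 106, 71.4 and 81.0 CPM untreated and at 43.3, 101 and 147 CPM treated. The endothelial cadherin Cdh5 had the same order of libraries, at 188, 126 and 135 CPM untreated and at 38.7, 136 and 309 CPM treated. Cldn5, the endothelial claudin that lies next to Cdc45 on chromosome 11 in GRCr8, was listed at 0 in every library. The gap between both genes there is 2191 bases. Whether reads of Cldn5 were counted to Cdc45 was not tested. These genes were chosen after their values were seen.

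The mitotic minus replication difference stood beside another split of the libraries. The clock gene Arntl was at 40.2, 26.1 and 25.95 CPM in untreated replicate 1 and treated replicates 1 and 3, where that difference was 0.34, 0.16 and 0.26. It was at 9.83, 8.16 and 6.18 CPM in untreated replicates 2 and 3 and treated replicate 2, where the difference was 0.07, -0.34 and -0.48. Arntl was chosen after its values were seen, and its 2 lowest libraries were the pair low in the cell cycle genes. The relation of both measures was not tested.

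Treated replicate 1, highest in Pcna, was also highest in Myc, at 69.2 CPM against at most 38.2 CPM in the other libraries, and in Ccng1, at 222 CPM against at most 174 CPM. Both were chosen after their values were seen.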
